A study of Mus musculus with 20 samples.

Results

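The genes described here are 9 genes of glucocorticoid signalling, listed by gene symbol: the receptor gene Nr3c1, the hormone-activating enzyme gene Hsd11b1, and the hormone-responsive genes Fkbp5, Tsc22d3, Per1, Klf9, Sgk1, Zbtb16 and Hif3a. They are 9 of 35226 genes in the count table, and all 9 were among the 16665 genes that passed the filter on low counts. Gene expression had been measured by mRNA sequencing in 20 subcutaneous tumors of LLC1, a mouse Lewis lung carcinoma cell line, grown in male C57BL6/J mice aged 8 to 10 weeks, with 1 library per tumor. Treatment was vehicle, KW6002 (labelled KW, also named istradefylline, which blocks adenosine receptors), cisplatin (a platinum drug that damages DNA, labelled cisplatine) or cisplatin with KW6002 (labelled cisplatine+KW and called cotreatment here), with 5 tumors per group. All mice carried the same cell line, so the groups stand for 1 tumor model. The library codes in the labels fell into an earlier and a later series of numbers with a gap between them, and every group held tumors of both (vehicle 1 and 4, KW6002 2 and 3, cisplatin 2 and 3, cotreatment 3 and 2). The labels do not say what the codes stand for.

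Glucocorticoids, which in mice means mainly corticosterone from the adrenal cortex, cross the cell membrane and bind the glucocorticoid receptor, which is held in the cytoplasm by heat shock proteins and their cochaperones. The occupied receptor enters the nucleus, binds glucocorticoid response elements in DNA and raises the transcription of a set of genes that many tissues share, while it lowers inflammatory genes such as cytokines. Secretion of the hormone follows the time of day and rises with stress and illness. The hour of tumor collection was not given in the sources used here, and hormone levels were not analysed here.

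Levels are given as CPM, counts per M reads of a library whose size was scaled by TMM, the trimmed mean of M-values. A gene was called changed when edgeR's quasi-likelihood test over all 16665 genes gave a Benjamini-Hochberg adjusted P value under 0.05 and an absolute log2 fold change of at least 0.32. The libraries held 28371364 to 40965731 reads in genes. Bulk tumor RNA mixes carcinoma and host cells, and a change in the share of a cell type cannot be told apart from a change in RNA per cell. Vehicle replicate 2 stood apart, with the highest level in its group for all 9 genes and a summed adipocyte marker level of 306 CPM, against 21.5 to 33.9 CPM in the other vehicle tumors. Cotreatment replicate 4 had the lowest level in its group for 7 of the 9 genes, and its 8 skeletal muscle markers summed to 1502 CPM, against 4.06 to 99.8 CPM in the other cotreated tumors. The part of these markers in the results was not tested. The counts of these 9 genes called in the pairwise comparisons below were the same without either tumor.

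Because the receptor acts through DNA sequence, the promoters of the members were read from RefSeq (GRCm38.p6), as the 300 bases from 250 before to 50 after each annotated start site. The table held 15 start sites for 7 of the 9 genes. The motifs searched were the response element, written AGAACA, 3 bases of any kind, TGTTCT, which reads the same on both strands; its arm AGAACA alone, on either strand; and the E box CACGTG, the site of the CLOCK and BMAL1 clock factors. The full element stood in 3 of 32851 promoters of all genes (0.00913%), and 1 of these 3 was 1 of 6 start sites of Sgk1, with the element beginning 189 bases before the start. The arm alone stood in 19% and the E box in 7.15% of all promoters. Below, capitals mark these motifs. They show the Sgk1 promoter with the full element and 1 of 3 Tsc22d3 start sites, with a single arm. They also show the 1 start site of Fkbp5 and 1 of 2 of Per1, each with an E box. The other windows of Tsc22d3 and Per1 held none of the 3 motifs.
Sgk1, chr10:21993640-21993939, plus strand: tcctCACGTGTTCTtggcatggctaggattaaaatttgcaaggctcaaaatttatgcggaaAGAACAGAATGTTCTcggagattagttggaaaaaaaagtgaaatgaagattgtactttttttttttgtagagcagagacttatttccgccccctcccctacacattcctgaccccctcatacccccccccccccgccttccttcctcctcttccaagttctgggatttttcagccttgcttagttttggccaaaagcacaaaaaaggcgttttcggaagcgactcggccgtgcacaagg
Tsc22d3, chrX:140600473-140600772, minus strand: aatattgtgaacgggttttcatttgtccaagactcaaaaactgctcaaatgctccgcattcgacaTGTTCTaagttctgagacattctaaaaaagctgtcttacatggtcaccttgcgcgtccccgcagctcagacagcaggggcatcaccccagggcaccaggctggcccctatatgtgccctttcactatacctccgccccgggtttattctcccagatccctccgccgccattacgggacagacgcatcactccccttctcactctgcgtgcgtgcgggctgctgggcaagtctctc
Fkbp5, chr17:28486100-28486399, minus strand: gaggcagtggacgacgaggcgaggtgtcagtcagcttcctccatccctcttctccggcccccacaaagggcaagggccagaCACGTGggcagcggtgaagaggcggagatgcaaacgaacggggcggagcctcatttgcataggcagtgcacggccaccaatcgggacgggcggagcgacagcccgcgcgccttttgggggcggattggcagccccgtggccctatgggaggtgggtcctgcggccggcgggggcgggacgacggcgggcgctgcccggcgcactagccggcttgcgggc
Per1, chr11:69098699-69098998, plus strand: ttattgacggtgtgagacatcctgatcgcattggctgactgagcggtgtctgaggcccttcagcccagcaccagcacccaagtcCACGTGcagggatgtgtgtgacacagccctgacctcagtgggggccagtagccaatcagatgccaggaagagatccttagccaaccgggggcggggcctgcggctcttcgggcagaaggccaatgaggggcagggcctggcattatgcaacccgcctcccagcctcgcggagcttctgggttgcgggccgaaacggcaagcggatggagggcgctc
In the Sgk1 promoter the E box at -246 shares bases with an arm at -242, and the full element contains the arms at -189 and -180. The Fkbp5 E box begins at -169 and the Per1 E box at -166. The windows of Klf9, Hif3a and Hsd11b1 held none of the 3 motifs, which says only that these letters are not within those 300 bases.

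In vehicle tumors the genes spanned a wide range of levels. Per kilobase of exon, Sgk1 stood at 24.8 ± 1.47 CPM (SD, n = 5), Nr3c1 at 24.6 ± 1.49 and Fkbp5 at 20.2 ± 3.19, and the SD ranges of these 3 genes overlapped. Tsc22d3 at 13.4 ± 3.72, Per1 at 13.0 ± 5.23 and Klf9 at 9.04 ± 3.08 CPM per kilobase followed, with overlapping SD ranges. Hsd11b1 stood at 0.891 ± 0.325 CPM per kilobase. Zbtb16 and Hif3a were near the limit of detection, with 50 and 31 reads in total over the 5 vehicle tumors, so they passed the filter only through the tumors given cisplatin (2 of the 10 tumors without it held more than the cutoff of 0.317 CPM for either gene, and 5 were needed). A rise over vehicle was thereby a condition of their being tested, and their differences from vehicle are given as a description.

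**Figure D1:**
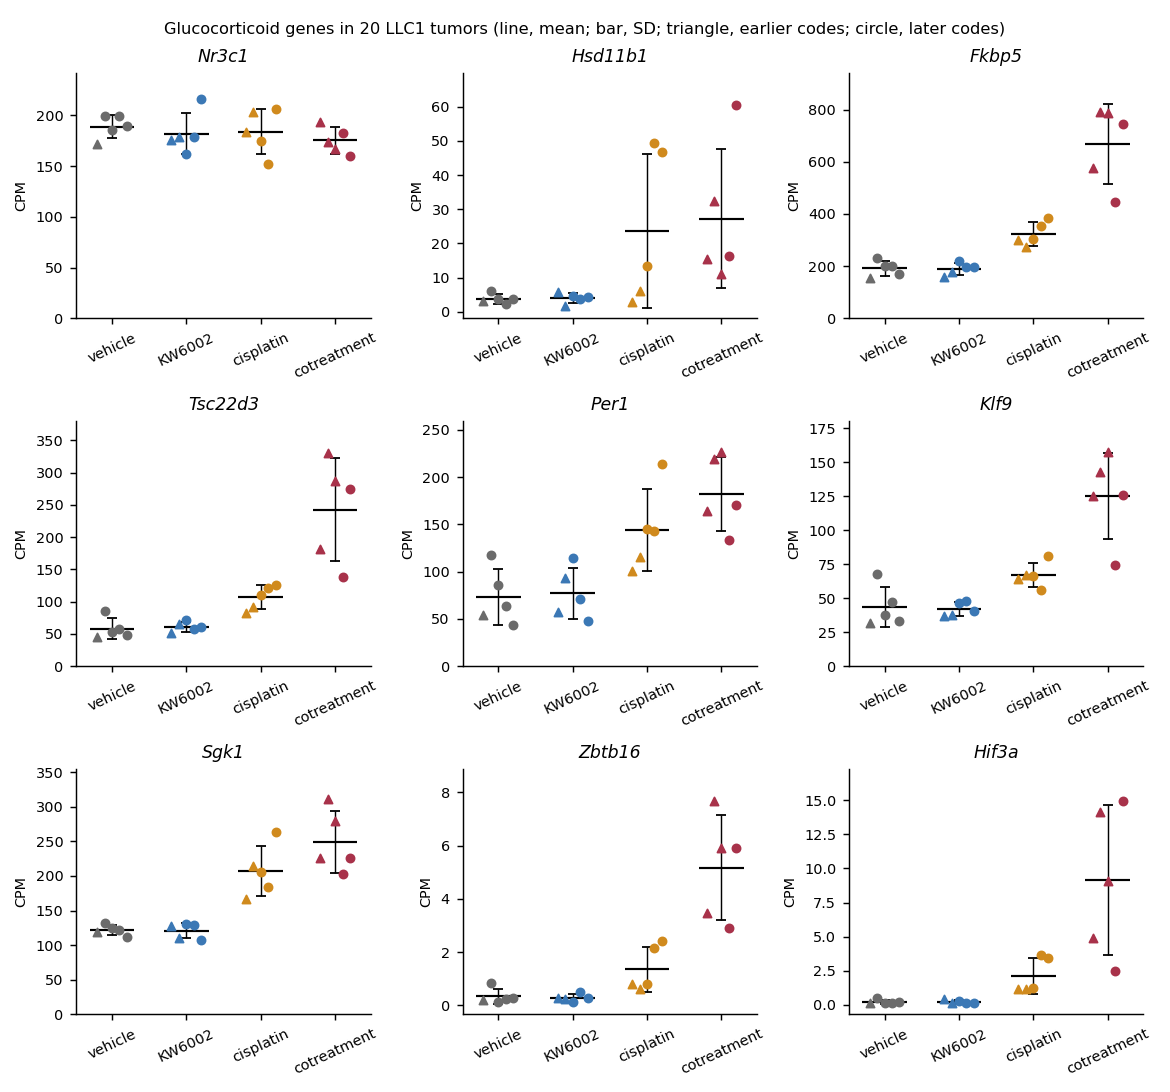
Level of each gene in every tumor, in CPM on a linear axis, by treatment group, with the group mean (line) and SD (bar) of 5 tumors. Triangles are tumors of the earlier library codes and circles those of the later codes. Nr3c1 lies between 152 and 216 CPM throughout, while Fkbp5 lies between 273 and 385 CPM after cisplatin and between 446 and 790.3 CPM after cotreatment, above all vehicle and KW6002 tumors.

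The receptor itself did not pass the test in any comparison. Nr3c1 (chromosome 18, 39410545 to 39519421, minus strand, GRCm38) encodes the glucocorticoid receptor. Its level was 189 ± 11.5 CPM in vehicle, 182 ± 20.3 with KW6002, 184 ± 22.3 with cisplatin and 175 ± 13.4 CPM with cotreatment (SD, n = 5 each). The log2 difference between cotreatment and vehicle was -0.11 with a 95% interval of -0.28 to 0.07 (edgeR adjusted P = 0.333). For cisplatin against vehicle the log2 interval was -0.21 to 0.14. The ranges of the 4 groups overlapped.

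Hsd11b1, by contrast, rose after both cisplatin treatments and spread widely between the tumors given cisplatin, with coefficients of variation of 95.4% after cisplatin and 74.7% after cotreatment against 36.5% in vehicle. The gene (chromosome 1, 193221634 to 193264075, minus strand) encodes the enzyme that regenerates active glucocorticoid from its inactive 11-keto form inside cells. Vehicle replicates 1 to 5 held 3.07, 6.01, 3.75, 2.31 and 3.78 CPM, and the KW6002 replicates 5.69, 1.81, 4.59, 3.65 and 4.27 CPM. The cisplatin replicates held 2.87, 6.09, 13.3, 49.3 and 46.9 CPM, and the cotreated replicates 15.5, 32.5, 11.2, 16.3 and 60.5 CPM. Each cotreated tumor was above each vehicle tumor, whereas cisplatin replicate 1 lay within the vehicle range. The log2 fold change was 2.65 ± 0.70 (SE) after cisplatin (adjusted P = 0.0161) and 2.85 ± 0.70 after cotreatment (adjusted P = 0.0046). The cisplatin call was lost with limma voom (log2 1.74, adjusted P = 0.0681) and with the replicate number as a block (log2 2.30, adjusted P = 0.052). It was also lost with only the groups compared in the fit (adjusted P = 0.0658) and when tested against the fold limit (adjusted P = 0.0607). Over all alternatives its adjusted P ranged from 0.000559 to 0.0681. Cotreatment and cisplatin did not differ by the test, with a log2 difference of 0.20 and an interval of -1.15 to 1.54 (adjusted P = 0.881).

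The cisplatin replicates with the highest Hsd11b1, 4 and 5, also had the highest summed fibroblast markers of their group, 14918 and 12758 CPM against 9009 to 10191 CPM in the other cisplatin tumors. The same markers ranged from 10104 to 13239 CPM in vehicle tumors, where Hsd11b1 was low. Of the 8 fibroblast markers, 1 was called higher and 2 lower after cisplatin. The same cisplatin replicates, 4 and 5, also had the highest summed adipocyte, neutrophil, T and NK cell and carcinoma cell markers of their group. Neutrophil markers, for example, summed to 43.9 and 70.4 CPM in them, against 15.5 to 27.6 CPM in the other cisplatin tumors. Macrophage, endothelial, skeletal muscle and epidermal markers did not rank this way. The part of any of these markers in the Hsd11b1 result was not tested.

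Fkbp5 and Tsc22d3 rose after cisplatin and rose further after cotreatment, with all cotreated tumors above all cisplatin tumors. Fkbp5 (chromosome 17, 28399094 to 28517527, minus strand) encodes a cochaperone that lowers the hormone affinity of the receptor and so acts in a negative feedback loop. Its level in vehicle replicates 1 to 5 was 154, 231, 200.5, 202 and 169 CPM. In the KW6002 replicates it was 159, 179, 218, 198 and 195 CPM. The KW6002 range lay within the vehicle range. Cisplatin replicates held 300.3, 273, 305, 353 and 385 CPM. Cotreated replicates held 574, 790.3, 785, 446 and 745 CPM. Neither group given cisplatin overlapped the vehicle group, and they did not overlap each other. The increase was 1.69-fold after cisplatin (log2 0.76 ± 0.15 SE, adjusted P = 0.00162) and 3.50-fold after cotreatment (log2 1.81 ± 0.15, adjusted P = 1.14e-07). Cotreatment exceeded cisplatin by a log2 value of 1.05 ± 0.15 (adjusted P = 0.000778, and 4.19e-10 to 0.207 over all alternatives).

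Tsc22d3 (chromosome X, 140539528 to 140600659, minus strand) encodes GILZ, a leucine zipper protein that restrains inflammatory transcription factors. Vehicle replicates held 46.1, 86.1, 52.3, 57.1 and 49.0 CPM. The KW6002 replicates held 50.8, 65.4, 71.8, 57.3 and 61.0 CPM. Apart from vehicle replicate 2, the tumors without cisplatin lay below all tumors given it. Cisplatin replicates held 83.1, 92.6, 109.9, 122 and 126 CPM. Cotreated replicates held 182, 331, 287, 138 and 275 CPM. Cisplatin and cotreated tumors did not overlap, while cisplatin replicate 1 fell just under vehicle replicate 2. The log2 fold change was 0.88 ± 0.22 after cisplatin (adjusted P = 0.0104) and 2.06 ± 0.22 after cotreatment (adjusted P = 2.45e-06). The step from cisplatin to cotreatment was 1.18 ± 0.21 (adjusted P = 0.00492). Over all alternatives the adjusted P ranged from 0.000991 to 0.0809 for cisplatin against vehicle and from 1.22e-05 to 0.346 for this step.

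Zbtb16 and Hif3a were almost silent in vehicle tumors and were higher in cotreated than in cisplatin tumors. Zbtb16 (chromosome 9, 48654297 to 48836222, minus strand) encodes the zinc finger repressor PLZF. Its levels in vehicle replicates were 0.207, 0.844, 0.131, 0.220 and 0.261 CPM, and in KW6002 replicates 0.280, 0.226, 0.127, 0.512 and 0.253 CPM. Cisplatin replicates held 0.778, 0.609, 0.787, 2.15 and 2.41 CPM. Cotreated replicates held 3.45, 7.69, 5.90, 2.92 and 5.90 CPM. All cotreated tumors lay above all others, and cisplatin tumors overlapped vehicle replicate 2. The log2 difference from vehicle was 2.03 ± 0.50 (SE) after cisplatin and 3.96 ± 0.49 after cotreatment. Between these groups, each of which would have passed the filter alone, it was 1.94 ± 0.43 (adjusted P = 0.0122, and 0.000383 to 0.402 over all alternatives).

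Hif3a (chromosome 7, 17031507 to 17062427, minus strand) encodes a hypoxia-inducible factor subunit, some forms of which oppose the other subunits of that family. Vehicle replicates held 0.104, 0.492, 0.131, 0.110 and 0.196 CPM, that is 3 to 14 reads per tumor. The KW6002 replicates held 0.404, 0.0967, 0.253, 0.0961 and 0.108 CPM. Tumors without cisplatin thus held at most 0.492 CPM. Cisplatin replicates held 1.12, 1.14, 1.21, 3.65 and 3.42 CPM. Cotreated replicates held 4.92, 14.2, 9.07, 2.50 and 15.0 CPM. Both groups lay wholly above vehicle, and cotreated replicate 4 lay within the cisplatin range. The log2 difference from vehicle was 3.36 ± 0.62 after cisplatin and 5.47 ± 0.62 after cotreatment. Cotreatment exceeded cisplatin by 2.11 ± 0.48 (adjusted P = 0.0161), and without cotreatment replicate 2 that adjusted P was 0.0529, in a range of 0.00274 to 0.371 over all alternatives.

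Klf9 rose after cisplatin and rose further after cotreatment, as Fkbp5 and Tsc22d3 did, at smaller folds. The gene (chromosome 19, 23141226 to 23168134, plus strand) encodes a Krüppel-like transcription factor that responds to glucocorticoids in many tissues. Vehicle replicates held 31.6, 67.7, 37.5, 47.4 and 33.4 CPM. The KW6002 replicates held 37.1, 37.5, 46.8, 47.9 and 40.8 CPM. Vehicle replicate 2 was again the highest tumor without cisplatin. Cisplatin replicates held 64.2, 66.9, 66.4, 56.4 and 80.7 CPM. Cotreated replicates held 125, 143, 157, 74.3 and 126 CPM. Of the cotreated tumors, 4 lay above all cisplatin tumors, and replicate 4 lay within their range. The log2 fold change was 0.62 ± 0.20 after cisplatin (adjusted P = 0.0407) and 1.52 ± 0.20 after cotreatment (adjusted P = 1.86e-05). Between these groups it was 0.90 ± 0.20 (adjusted P = 0.0131, and 0.0001 to 0.458 over all alternatives). The cisplatin call was lost when any 1 of 7 tumors was left out (vehicle replicates 1, 3, 4 and 5, cisplatin replicates 2, 3 and 5), with adjusted P values of 0.0628 to 0.0908 in a range of 0.00373 to 0.337 over all alternatives.

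Per1 and Sgk1 rose after cisplatin but did not differ between cotreatment and cisplatin by the test. Per1 (chromosome 11, 69095217 to 69109960, plus strand) is a period gene of the circadian clock and a direct target of the receptor. Vehicle replicates held 54.6, 117, 86.3, 63.6 and 43.1 CPM, and KW6002 replicates 57.8, 93.3, 115, 70.8 and 48.3 CPM. Cisplatin replicates held 101, 115, 146, 143 and 213 CPM. Cotreated replicates held 164, 219, 226, 133 and 170.1 CPM. The vehicle group already spread from 43.1 to 117 CPM, and only the cotreated group lay wholly above it. Per1 rose by a log2 value of 0.98 ± 0.29 after cisplatin (adjusted P = 0.0273) and 1.32 ± 0.29 after cotreatment (adjusted P = 0.00179). In the later codes alone the cotreatment call was lost (log2 0.99, adjusted P = 0.159). The difference between these groups was 0.34, with an interval of -0.25 to 0.94 (adjusted P = 0.491). Leaving out vehicle replicate 1, 4 or 5 or cisplatin replicate 5 ended the cisplatin call, with adjusted P values of 0.0603 to 0.0729 in a range of 0.00694 to 0.162 over all alternatives.

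Sgk1 (chromosome 10, 21882184 to 21999903, plus strand) encodes a kinase that regulates ion channels and cell survival. Its vehicle tumors lay close together, with a coefficient of variation of 5.94%. Vehicle replicates held 119, 131, 124, 122 and 112 CPM. The KW6002 replicates held 127, 110.2, 131, 128 and 107 CPM. The KW6002 range overlapped the vehicle range. Cisplatin replicates held 167, 215, 206, 184 and 263 CPM. Cotreated replicates held 226, 312, 279, 203 and 226 CPM. Both groups lay wholly above vehicle, and they overlapped each other. Sgk1 rose 1.70-fold after cisplatin (log2 0.77 ± 0.11, adjusted P = 0.000158) and 2.05-fold after cotreatment (log2 1.03 ± 0.12, adjusted P = 1.69e-06). Between these groups the log2 difference was 0.27, with an interval of 0.03 to 0.51 (adjusted P = 0.161).

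**Figure D2:**
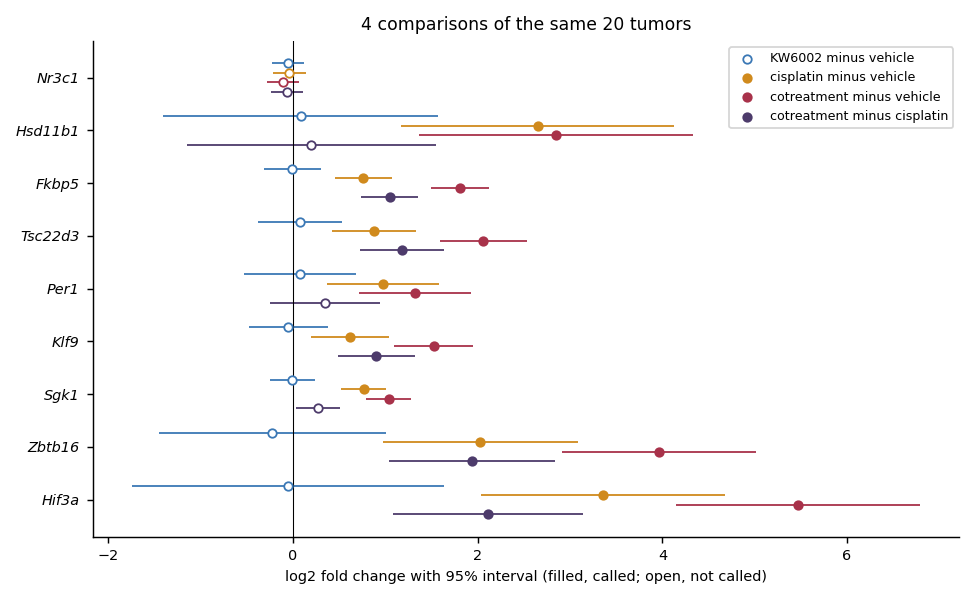
Log2 fold change of each gene with its 95% interval in 4 comparisons of 5 with 5 tumors, where filled points passed both thresholds and open points did not. All points of KW6002 minus vehicle and all of Nr3c1 are open, the other 8 genes are filled in both comparisons of cisplatin treatments with vehicle (of these, Zbtb16 and Hif3a were tested only because they were high there), and 5 are filled in cotreatment minus cisplatin.

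Counted over the 7 members that passed the filter without the tumors given cisplatin, cisplatin raised 6 and lowered none, against 10.6% of all genes tested that were called in either direction. Cotreatment raised 6 of these 7 over vehicle, against 23.5% of all genes. Cotreatment likewise raised 6 of 7 over KW6002, against 23.3%, and the mean of the cisplatin arms exceeded the mean of the arms without cisplatin for 6 of 7, against 21.8%. The member not called in each was Nr3c1, and Zbtb16 and Hif3a are left out of these counts. The median log2 fold change of the 7 genes was 0.77 after cisplatin and 1.52 after cotreatment, while the median over all genes tested was 0.0004 and -0.02. These comparisons share their vehicle tumors. The members were chosen with earlier results of these data known, so their shares beside those of all genes are a description. Counted by ranges, 2 of the 7 (Fkbp5 and Sgk1) lay wholly above vehicle after cisplatin, against 10.4% of all genes whose groups did not overlap in either direction. After cotreatment 6 of the 7 lay wholly above vehicle, against 24.7% of all genes.

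With KW6002 alone no member passed the test. The edgeR test called 0 of 9 members and 0% of all genes, 0 of the 9 reached an unadjusted P under 0.05, against 2.03% of all genes, and DESeq2 and limma voom also called 0 members and 0% of all genes. Fkbp5 differed by a log2 value of -0.01, with an interval of -0.32 to 0.30, and Sgk1 by -0.01, with an interval of -0.25 to 0.23. For Hif3a, Hsd11b1 and Zbtb16 the intervals were wide, at -1.74 to 1.63, -1.40 to 1.57 and -1.45 to 1.00. No member had groups that did not overlap, against 0.342% of all genes.

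With cisplatin given in both groups, the addition of KW6002 was accompanied by higher levels of 5 of 9 members (Fkbp5, Tsc22d3, Klf9, Zbtb16 and Hif3a), against 4% of all genes tested. Groups did not overlap for 3 of these (Fkbp5, Tsc22d3 and Zbtb16), against 4.83% of all genes. The median log2 difference of the 9 genes was 0.90, and that of the 7 without Zbtb16 and Hif3a was 0.34. The interaction, that is the KW6002 difference in tumors given cisplatin less that in tumors not given it, was 1.06 for Fkbp5, 1.11 for Tsc22d3, 0.96 for Klf9, 2.16 for Zbtb16 and 2.17 for Hif3a on the log2 scale. In edgeR none of the 9 members passed for the interaction, against 0.066% of all genes. Of the 7 that passed the filter without the tumors given cisplatin, 3 (Fkbp5, Tsc22d3 and Klf9) reached an unadjusted P under 0.05. Of all genes 12.2% did so. The interactions of Zbtb16 and Hif3a are a description, because both passed the filter only through the tumors given cisplatin. The lowest adjusted P was 0.0536 for Fkbp5 (0.000206 to 0.656 over all alternatives). DESeq2 called 3 of the 7 members that passed the filter without the tumors given cisplatin (Fkbp5, Tsc22d3 and Klf9), against 1.55% of all genes, and also Zbtb16, whose interaction is a description for the reason given above. For the 9 genes, limma voom called 2 (Fkbp5 and Tsc22d3), against 1.69% of all genes. Without cotreatment replicate 4 the edgeR test called 3 members (Fkbp5, Tsc22d3 and Klf9), against 1.36% of all genes. Without vehicle replicate 1 it called Fkbp5 alone, against 0.0711%. Calls for the interaction thus depended on the tool and on single tumors.

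The step from cisplatin to cotreatment was next computed within each series of library codes. Among tumors of the earlier codes (2 cisplatin and 3 cotreated) the log2 difference was 1.32 for Fkbp5, 1.11 for Klf9 and 3.03 for Zbtb16, and these 3 members were called, against 1.93% of all genes. Among tumors of the later codes (3 and 2) it was 0.78, 0.56 and 1.31. With these 5 tumors 0 members and 0.00581% of all genes were called, so the absence of calls was not particular to the members. For Tsc22d3 the values were 1.59 in the earlier and 0.79 in the later codes, and for Hif3a 3.04 and 1.67. The direction of these 5 genes was the same in both series. Per1 changed from 0.90 to -0.14 and Sgk1 from 0.50 to -0.02 between the earlier and the later codes, so their sign differed. Of the 2 later cotreated tumors, replicate 4 is the one set apart above. It held 446 CPM of Fkbp5, 133 of Per1 and 203 of Sgk1, against 745, 170.1 and 226 CPM in replicate 5. The later cisplatin tumors averaged 348, 167 and 218 CPM of these genes. The part of replicate 4 in the values of the later codes was not tested. Hsd11b1 differed by 2.11 in the earlier codes (mean 4.48 CPM after cisplatin and 19.7 CPM after cotreatment) and by 0.08 in the later codes (36.5 and 38.4 CPM), with no call in either (adjusted P = 0.272 and 0.972). Whether the step itself differed between the series was not tested, and each series holds 5 tumors for it.

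With the treatment groups held fixed, at most 1 member passed the test for a difference between earlier and later codes. Over all tumors, edgeR and limma voom called 0 of 9 members between earlier and later codes, against 0.006% and 0.042% of all genes. DESeq2 called 0 of the 6 members to which it gave an adjusted P (not Zbtb16, Hif3a and Hsd11b1), against 0.066% of all genes, and in edgeR 1 of 9 members (Hsd11b1) reached an unadjusted P under 0.05, against 13.4% of all genes. In tumors without cisplatin 0 members were called by any of these tools, against 0% of all genes in edgeR, 0.03% in DESeq2 and 0% in limma voom. In edgeR 0 members reached an unadjusted P under 0.05 there, against 4.63% of all genes, whereas 1 (Fkbp5) did so in DESeq2 and in limma voom. In tumors given cisplatin, where 7.29% of all genes were called, 1 member passed: Hsd11b1 was lower in the earlier codes by a log2 value of -1.93 ± 0.59 (adjusted P = 0.0419). That call was lost without any 1 of 12 of the 20 tumors, with adjusted P values of up to 0.150, and over all alternatives the adjusted P ranged from 0.00297 to 0.356. In the same comparison 3 of 8 fibroblast, 4 of 7 macrophage and 4 of 6 neutrophil markers were called lower in the earlier codes, and their part in the Hsd11b1 result was not tested. Of the 24 further glucocorticoid-induced genes described below, 6 (25%) were called lower there, as were 3 of 7 repressed genes (42.9%). The earlier cisplatin tumors held 2.87 and 6.09 CPM of Hsd11b1 and the later ones 13.3 to 49.3 CPM.

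**Figure D3:**
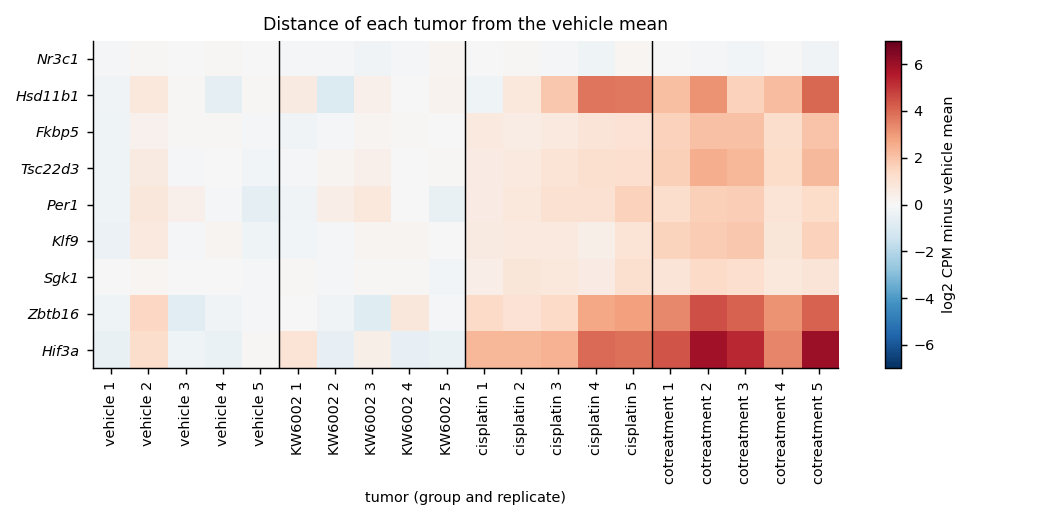
Difference of each tumor's log2 CPM from the vehicle mean, with genes in lines and the 20 tumors in columns by group and replicate (red above, blue below vehicle). The median over the 8 genes other than Nr3c1 was 0.59 to 1.40 in cisplatin tumors and 1.26 to 2.30 in cotreated tumors, with cotreatment replicate 4 lowest of its group and vehicle replicate 2, at 0.71, highest of the tumors without cisplatin. These 8 include Zbtb16 and Hif3a, which passed the filter only through the tumors given cisplatin, so the medians are a description.

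The members were next compared from tumor to tumor within groups. After subtraction of the group means, Fkbp5 and Tsc22d3 followed each other most closely over the 20 tumors (Pearson r = 0.913, Spearman rho = 0.920, permutation test, adjusted P = 0.00036 for both over 36 pairs, the smallest the 100000 permutations allowed after adjustment). Without the 2 tumors farthest from the median of Fkbp5, r was 0.868. Among tumors of the earlier codes r was 0.897 (n = 7) and among those of the later codes 0.919 (n = 12). Fkbp5 with Klf9 gave r = 0.805 and rho = 0.785 (adjusted P = 0.0023 and 0.0016), and 0.664 without the 2 farthest tumors. Hif3a and Hsd11b1 gave r = 0.723 and rho = 0.812 (adjusted P = 0.0058 and 0.0018), and 0.721 without the 2 farthest tumors. In all, 18 of 36 pairs passed by Pearson r, each with a positive r of at least 0.547, a value that 6.62% of all pairs of genes tested reached. Of these 18, the pair at 0.547 (Zbtb16 and Klf9) did not pass by Spearman rho (0.439, permutation test, adjusted P = 0.110). The 18 include pairs with Zbtb16 or Hif3a, which held few reads in tumors without cisplatin, and those pairs are a description. In tumors without cisplatin (n = 10) Fkbp5 gave r = 0.262 with Zbtb16 and 0.209 with Hif3a, against 0.851 and 0.927 in tumors given it. Hif3a with Hsd11b1 gave 0.785 and 0.739 in these 2 sets of tumors. With the means of group and code series both removed 8 pairs passed over 19 tumors, since vehicle replicate 1 was the only earlier vehicle tumor. Without the 2 farthest tumors of each pair 6 passed. None of the 8 pairs with Nr3c1 passed, with r from -0.31 to 0.19.

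**Figure D4:**
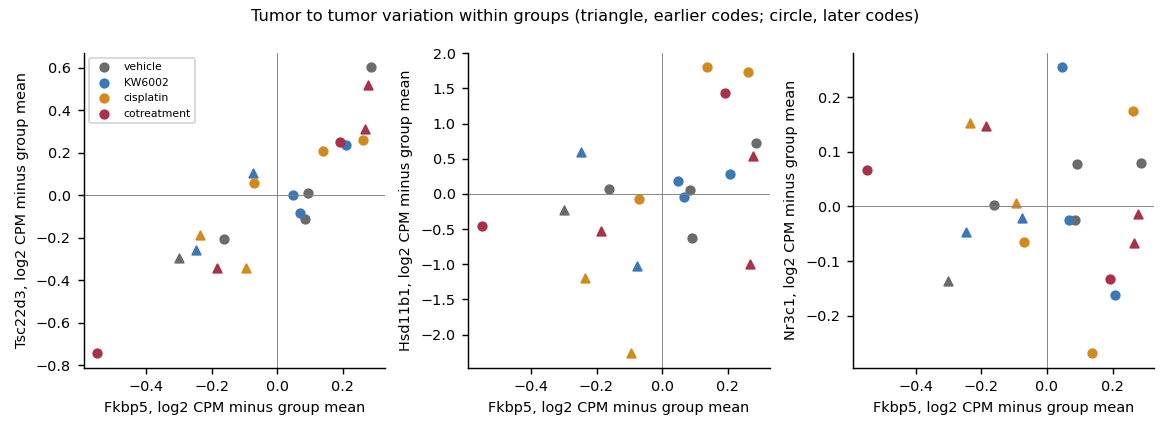
Log2 CPM minus the group mean in 20 tumors for Fkbp5 on the horizontal axis against Tsc22d3 (left), Hsd11b1 (middle) and Nr3c1 (right), coloured by group, with triangles for earlier and circles for later library codes. Tsc22d3 rises with Fkbp5 (r = 0.913), Hsd11b1 scatters (r = 0.437), and Nr3c1 shows no rise (r = -0.136).

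The genes most like each member by this measure were taken as the 3 with the highest r over the 20 tumors, as a description. Those of Fkbp5 were Hhipl1 (0.926), Tsc22d3 (0.913) and Gprc5b (0.899). Those of Tsc22d3 were Fkbp5 (0.913), Hhipl1 (0.893) and Gm807 (0.889), and those of Klf9 were Gm807 (0.847), Dhrs9 (0.840) and Fkbp5 (0.805). For Hif3a they were Iqck (0.882), Sult1a1 (0.860) and Adh1 (0.849), and for Hsd11b1 Ifi205 (0.958), Mgst1 (0.948) and Ccdc80 (0.946). Per1 was closest to Bcl2l1 (0.813), Sgk1 to Ifrd1 (0.837), Zbtb16 to Klf4 (0.822) and Nr3c1 to Ctdspl2 (0.922).

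Other genes of the pathway were counted from lists. These lists were chosen with earlier results of these data known, so their shares beside those of all genes are a description. Of 24 further glucocorticoid-induced genes tested, cisplatin raised 1 (Pdk4) and lowered 1 (Rgs2), or 8.33% of the list against 10.6% of all genes. Cotreatment raised 8 and lowered 1, or 37.5% against 23.5%. Dusp1, a phosphatase that ends kinase signalling, was at 16.8 ± 1.22 CPM in vehicle and 43.6 ± 14.7 CPM in cotreated tumors (log2 1.38, adjusted P = 0.000239). Pdk4, which restrains glucose oxidation, went from 1.23 ± 0.399 to 10.7 ± 8.57 CPM (log2 3.12, adjusted P = 0.000317). Cotreatment exceeded cisplatin for 3 of the 24 (Ddit4, Arrdc2 and Txnip), or 12.5% of the list against 4% of all genes. The median log2 fold change of the 24 genes was 0.14 after cisplatin and 0.34 after cotreatment, below the medians of the members given above.

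The receptor is held ready for hormone by HSP90 and its cochaperones. Of 11 genes of the receptor complex and its cofactors, cisplatin lowered 2 and raised none (18.2% of the list, against 10.6% of all genes), and cotreatment lowered 6 and raised 2 (72.7%, against 23.5%). Hsp90aa1, an inducible HSP90, went from 186 ± 9.38 CPM in vehicle to 148 ± 10.1 after cisplatin and 123 ± 7.35 after cotreatment (log2 -0.33 and -0.60). Fkbp4, the cochaperone that competes with the product of Fkbp5, was lower by log2 -0.54 after cotreatment (adjusted P = 1.41e-06), and Stip1 by -0.49 (adjusted P = 2.13e-06). The coactivator gene Ncoa1 rose by 0.56 (adjusted P = 7.85e-06). Of 8 hormone handling genes, cisplatin raised 2 (H6pd and Abcb1b), or 25% of the list against 10.6% of all genes. Cotreatment raised 3 of the 8 and lowered 1, or 50% against 23.5%. H6pd, which supplies the cofactor of the Hsd11b1 enzyme, rose by 0.38 (adjusted P = 0.0261) and 0.60 (adjusted P = 0.000364), and Hsd11b2, which inactivates the hormone, rose by 1.72 after cotreatment (adjusted P = 0.00503) from 0.277 to 0.924 CPM.

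Of 7 genes that glucocorticoids are known to repress, cisplatin changed none by the test and cotreatment lowered 5, or 71.4% of the list against 23.5% of all genes. After cotreatment Ccl2 fell by 1.03, Il1b fell by 2.93, Ptgs2 fell by 1.88 and Il6 fell by 1.88 on the log2 scale (edgeR adjusted P = 0.000183, 0.000532, 0.000992 and 0.00125). Neutrophils make several of these products, and 4 of 6 neutrophil markers were called lower after cotreatment, and their summed level was 16.4 to 35.4 CPM against 47.7 to 123 CPM in vehicle. The part of neutrophils in these falls was not tested. Of 14 other clock genes, cisplatin raised 6 (42.9%, against 10.6% of all genes) and cotreatment 7 (50%, against 23.5%), and none was called lower. Per2 rose by 1.82 after cisplatin (adjusted P = 0.000108) and by 2.32 after cotreatment (adjusted P = 2.43e-06), and 0 of the 14 were called between cotreatment and cisplatin, where 4% of all genes were.

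The markers of other cell types were summed in the same way. The 6 endothelial markers were called lower after both treatments, and their sum was 73.6 to 101 CPM after cisplatin and 71.4 to 110.3 CPM after cotreatment against 145 to 212 CPM in vehicle. None of the adipocyte or skeletal muscle markers was called in these comparisons, although the summed muscle markers had a median of 5.31 CPM in vehicle, 185 CPM after cisplatin and 19.7 CPM after cotreatment. The summed adipocyte markers had medians of 28.4, 14.4 and 30.9 CPM in these groups. Macrophage markers summed to 1150.4 to 1621 CPM in vehicle, 1270.2 to 2252 CPM after cisplatin and 1268 to 1635 CPM after cotreatment. The carcinoma cell markers were Krt8, Krt18, Epcam, Cdh1 and Vim, and Vim is not confined to carcinoma cells. They summed to 3542 to 4093 CPM in vehicle, where Krt8 averaged 129 CPM. Their sum was 3304 to 5253 CPM after cisplatin and 3382 to 4058 CPM after cotreatment. It is thus not a measure of carcinoma cells alone. Among the 4 of these markers that were tested, 1 (Krt8) was called higher. Of the 4 epidermal markers matched, 3 were at 3 reads or fewer in every tumor. The 7 T and NK cell markers summed to 1.79 to 5.77 CPM in vehicle and 2.48 to 21.9 CPM with KW6002. Their sum was 1.66 to 7.82 CPM after cisplatin and 1.46 to 3.11 CPM after cotreatment. Of the 7 markers, 1 (Trac) was called lower in cotreatment against vehicle and 0 in cisplatin against vehicle. In cotreatment against KW6002 5 (71.4%, against 23.3% of all genes) were called lower. The cisplatin arms against the arms without cisplatin also gave 5 lower (71.4%, against 21.8%). KW6002 replicate 1 alone held the sum of 21.9 CPM, against 2.48 to 8.04 CPM in the other KW6002 tumors. Levels were low, with Cd3e at 0.764 ± 0.937 CPM (SD) with KW6002 and 0.103 ± 0.0986 CPM after cotreatment, beside the filter cutoff of 0.317 CPM. The part of that tumor and of the filter was not tested, so these T and NK cell counts are a description. The part of cell composition in the rise of the 8 genes was not tested.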

How the data were processed

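Libraries were poly(A)-selected and stranded (TruSeq). Per the labels and the study's methods, the authors demultiplexed reads with bcl2fastq version 2.17.1.14, aligned them to mm10 (GRCm38) with STAR and counted uniquely aligned reads per Ensembl gene with HTSeq version 0.6.1p1, in union mode. The strand option was not given in the sources used here, so reads of overlapping genes may not be separated by strand. The deposited values are raw counts, without molecular identifiers, and no column was left unused. Groups were taken from the sample titles, in which vehicle replicate 1 is worded differently from the other vehicle tumors. In all, 35142 of 35226 genes matched the GRCm38 annotation by identifier.

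Tests used edgeR (version 4.0.16, run in R version 4.3.3: filterByExpr by group, TMM, robust quasi-likelihood fit of 4 group means to 20 tumors, two-sided tests, Benjamini-Hochberg adjustment over all 16665 genes) on the counts. Series of library codes were added as 1 term, or as separate terms for tumors with and without cisplatin. SE is the log2 fold change divided by the root of the F statistic, and 95% intervals use the t distribution with 16 degrees of freedom. Log2 CPM used a prior count of 2. Levels per kilobase used the exon length of GENCODE. Correlations were tested by permutation within groups (Python version 3.11.15, SciPy version 1.17.1). The fit was tested on simulated counts. Alternatives were DESeq2 version 1.42.0, limma version 3.58.1 (voom), other scalings, filters and fold limits, a replicate block, the code series, and leaving out each tumor. The members and lists were chosen with earlier results of these data known, and named genes of other lists were up to 4 per list with the smallest adjusted P in cotreatment against vehicle, or counts of 5 or fewer named in full. P values measure the spread between the tumors sampled.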

Additional observations from a re-analysis of the deposited data

Results flagged for a closer look

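Within each group of 5 tumors, the highest and lowest tumor of each gene was compared with the others by Dixon's ratio, in 36 groups of values. Chance alone marks about 1 in 20 such groups, and 3 were marked, all of them the same tumor. Vehicle replicate 2 held 86.1 CPM of Tsc22d3, against 46.1 to 57.1 CPM in the other 4 vehicle tumors. It held 0.844 CPM of Zbtb16, against 0.131 to 0.261 CPM. It also held 0.492 CPM of Hif3a, against 0.104 to 0.196 CPM. This tumor had the highest summed adipocyte markers of the 20 tumors, at 306 CPM, and the part of these markers was not tested. Without it, the log2 fold change after cisplatin was 1.07 for Tsc22d3, 2.70 for Zbtb16 and 3.94 for Hif3a, and after cotreatment 2.26, 4.64 and 6.06. This tumor was the highest of its group for these genes, so its removal could only raise the fold over vehicle.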

How the results depend on the processing

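Of the 7 members that passed the filter without the tumors given cisplatin, 6 stayed called against vehicle after cotreatment in every leave-one-out fit. In the later codes alone Per1 lost its call against vehicle (adjusted P = 0.159) and against KW6002 (0.224). Hsd11b1 lost its call against KW6002 in the earlier codes alone (0.101). After cisplatin, Per1 and Klf9 both lost their calls against vehicle without vehicle replicate 1, 4 or 5 or cisplatin replicate 5. Klf9 alone did so without vehicle replicate 3 or cisplatin replicate 2 or 3. The other cisplatin calls among the 7 held in the leave-one-out fits, where 8.2% to 12.2% of all genes were called. In cotreatment against cisplatin the number of members called in these fits, Zbtb16 and Hif3a included, ranged from 4 to 5. The share of all genes called ranged from 1.72% to 6.03%, and the fit with 4 members (without cotreatment replicate 2) gave 1.72%. In the interaction the number ranged from 0 to 3 (without cotreatment replicate 4), with 0% to 1.36% of all genes. For code series in tumors given cisplatin it ranged from 0 to 1, with 1.77% to 9.88% of all genes. Tested against the fold limit itself, cisplatin against vehicle gave 4 members (2 of the 7, Fkbp5 and Sgk1) and 2.68% of all genes, cotreatment against cisplatin 1 and 0.168%, and the code series in tumors given cisplatin 0 and 0.018%. With only the groups compared in the fit the first 2 comparisons gave 5 (3 of the 7) and 3, with 8.04% and 1.35% of all genes. Cotreatment against cisplatin gave 3 with at least 10 counts in every tumor, where Zbtb16 and Hif3a leave the test, and 4.76% of all genes. It gave 3 and 1.93% in the earlier codes alone, and 0 and 0.00581% in the later codes alone. The interaction gave 4 with DESeq2 (Zbtb16 among them, as a description) and 1.55% of all genes, and 2 with voom and 1.69%. It gave 1 with that count filter and 0.278% of all genes, and 1 with the code series as a term and 0.102%. Without a low count filter cisplatin against vehicle gave 6 (Per1 and Klf9 lost) and 4.17% of all genes, and the code series in tumors given cisplatin 0 and 2.68%. With group and code means removed 8 pairs of members covaried, and without the 2 farthest tumors 6, in place of 18. Except where the construction (fewer genes or tumors) shows it, the cause was not tested.

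In cotreatment against cisplatin the sign turned for Per1 (-0.14) and Sgk1 (-0.0166) in the later codes alone, and the leave-one-out values of Hsd11b1 ranged from -0.33 to 0.65 (-0.08 and -0.05 without cisplatin replicate 1 or 2), with 2.11 in the earlier codes alone. None of these 3 was called in that comparison. Of the other log2 fold changes recomputed, 1464 kept direction and call, 57 kept direction but lost the call and 12 gained it.

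Replicate numbers did not pair tumors: same-numbered tumors of different groups had a median correlation of -0.03 (-0.39 to 0.39), and 5 of 20 tumors were closest to their own number. With the replicate number as a block, cisplatin against vehicle gave 7 members and 9.66% of all genes. These 7 include Zbtb16 and Hif3a, tested only because they were high there, and Hsd11b1 lost its call (adjusted P = 0.052). Cotreatment against cisplatin gave 5 and 3.5%, and the code series in tumors given cisplatin 0 and 0.03%. Depth limited Zbtb16 and Hif3a in tumors without cisplatin, where a tumor held as few as 4 and 3 reads.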
